A study of Rattus norvegicus with 6 samples.

Results

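Potassium and HCN channel genes were examined in sensory neurons from spontaneously hypertensive rats (SHRs), taken from the dorsal root ganglia (DRGs) at levels L1 and L2. The members were all rows of the deposited count table with the gene type protein_coding and a name that begins with Kcn or is Hcn with a number. This rule gave 96 of the 25689 genes in the table, and no measured value entered it. The genes were grouped by name into voltage-gated alpha subunits (38 genes), voltage-gated auxiliary subunits (12), inward rectifiers (15), two-pore channels (14), calcium- and sodium-activated channels (12) and HCN channels (4), with Kcnrg, a regulator of these channels, apart.

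RNA was sequenced from 3 samples of SHRs after surgical removal of the perirenal adipose tissue, the fat around the kidney, on both sides (PRATA). Another 3 samples came from SHRs after a sham operation. All 6 samples came from wild type SHRs, a strain with inherited hypertension, and the DRGs were taken 4 weeks after the operation. In the labels the rats are 6 to 8 weeks old. An older age at purchase stands in the published methods. The ganglia were digested and plated for 5 h, and the cells flushed off the dish were taken as neurons because glia adhere at a different speed, so each library came from an enriched mixture of cells and not from a sorted one. The published methods do not say whether each sample came from a single rat or from several. The p-values of edgeR rest on the spread between these 3 samples per group, moderated by the spread over all genes tested.

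Potassium channels let potassium leave the cell and draw the membrane back toward rest. Voltage-gated channels open on depolarization and end the action potential or hold the neuron below threshold. Two-pore channels carry the resting leak, inward rectifiers stabilize rest and take up signals from receptors or metabolism, and calcium-activated channels follow the spike. HCN channels open on hyperpolarization, pass sodium and potassium with a net inward current and drive repetitive firing. In sensory neurons the balance of these channels sets how readily a peripheral stimulus becomes a train of spikes, and their levels are known to differ between sensory neuron types and after nerve injury.

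The libraries held between 5892967 and 15226952 counts, and 3 counts corresponded to between 0.197 and 0.509 CPM (reads of a gene scaled to a common library total), a detection floor for counting error alone. This floor was taken from the library totals alone, without the normalization used for the levels below. All 20 sensory neuron markers examined were detected in every sample, and their summed level was 14800 to 22500 CPM after PRATA and 10400 to 16200 CPM after the sham operation. Markers of satellite glia (3350 to 6370 and 4500 to 8760 CPM) and Schwann cells (875 to 1530 and 671 to 879 CPM) were present in all samples too. PRATA replicate 3 and sham replicate 1 stood apart in the copy of the 7SL RNA that took the reads, with 98.9% and 99.5% of the reads of the 2 main copies on Rn7sl1 against 47.3% to 49.3% in the other 4 samples. Sham replicate 2, the shallowest library, had the highest level of the 6 samples in 57.3% of the genes too low to be tested.

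Of the 96 channel genes, 76 passed the filter on low counts and were tested, with 51 to 18988 reads each over the 6 samples. The other 20 had 5 to 86 reads in total and a mean of 0.0836 to 1.58 CPM and were too low for a test in the main comparison. Sham replicate 2 was the highest sample in 15 of these 20 genes, among them Kcna7 at 5.31 CPM against 0.516 to 1.66 CPM in the others, and Kcnj15 at 4.21 CPM against 0 to 0.633 CPM. Levels are given as CPM scaled by edgeR's TMM method, which does not correct for transcript length, so the levels of different genes are not ranked.

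Channel genes were mostly higher after PRATA than after the sham operation. Of the 76 genes tested, 65 had a log2 fold change (PRATA over sham) above 0, or 85.5%, where 52.0% of all 14919 genes tested did. Their median log2 fold change was 0.45, and that of all genes tested was 0.02. In edgeR's quasi-likelihood test, two-sided, 21 channel genes (27.6%) were higher after PRATA with an unadjusted p under 0.05, where 8.19% of all genes tested were, and 2 (2.63%) were lower, where 10.1% were. None reached an adjusted p under 0.05 after Benjamini-Hochberg adjustment over all genes tested (0.0% of all genes), and the smallest adjusted p of a channel gene was 0.156. Fitted without the filter, 72 of all 96 channel genes (75%) had a log2 fold change above 0, where 41.1% of all 25689 genes did, with medians of 0.41 and -0.17. In that fit the 20 genes of low level had a median of -1.24 with 6 above 0 (30.0%), and 1 of them (5.0%) was lower at an unadjusted p under 0.05, where 8.19% of all genes were.

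**Figure D1:**
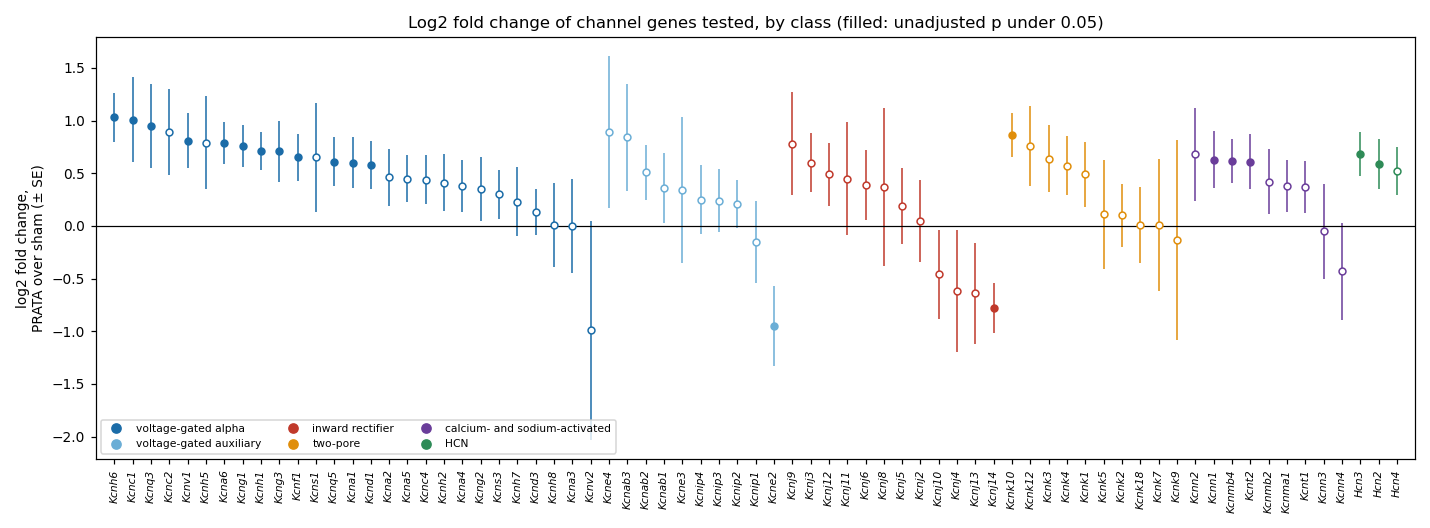
Log2 fold change of PRATA over sham with its standard error (vertical axis) for 71 of the 76 channel genes tested (horizontal axis), coloured by class and ordered within it. Filled points have an unadjusted p under 0.05; 60 of the points plotted lie above 0, and the filled points below 0 are Kcne2 and Kcnj14.

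The differences were not large. Only Kcnh6 and Kcnc1, 2 genes (2.63%), were higher by more than 1 on the log2 scale at an unadjusted p under 0.05, where 1.17% of all genes tested were, and 0 were lower by that much, where 3.23% of all genes were. For 16 channel genes (21.1%) the PRATA samples were all above the sham samples, where 11.6% of all genes tested did so, and for 2 (2.63%) the PRATA samples were all below, where 11.2% did so. The classes differed in their medians, from 0.64 for the HCN channels and 0.60 for the voltage-gated alpha subunits to 0.42 for the calcium- and sodium-activated channels, 0.30 for the two-pore channels and for the voltage-gated auxiliary subunits, and 0.28 for the inward rectifiers. These medians are descriptions and were not tested against each other.

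The channel genes also varied within the groups. The mean log2(CPM + 1) of the 76 genes was 4.17, 3.85 and 4.14 in the PRATA samples (replicates 1, 2 and 3) and 3.57, 3.99 and 3.56 in the sham samples. PRATA replicate 2 therefore lay below sham replicate 2, and the groups overlapped. PRATA replicate 2 was the lowest PRATA sample for 51 of the 76 genes, and sham replicate 2 the highest sham sample for 60. The replicate 2 samples took the same places for the sensory neuron markers, lowest after PRATA and highest after the sham operation, with means of 8.98, 8.54 and 8.99 after PRATA and 8.06, 8.68 and 8.30 after the sham operation, and with sham replicate 2 highest of the sham samples in 19 of 20. All 20 neuron markers had a log2 fold change above 0, with a median of 0.44, while all 9 satellite glia markers were below 0, with a median of -0.58, and all 10 Schwann cell markers above 0, with a median of 0.75. The medians were -0.47 for fibroblast, 0.68 for macrophage, 0.32 for endothelial and 0.07 for mural cell markers. The groups overlapped in the mean log2 level of the neuron, satellite glia and Schwann cell lists (exact permutation test, two-sided, p = 0.20 each, where 3 samples against 3 cannot go below 0.10). In such bulk samples a larger share of neurons and more RNA per neuron cannot be told apart, and the part of the marker differences in the results was not tested.

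**Figure D2:**
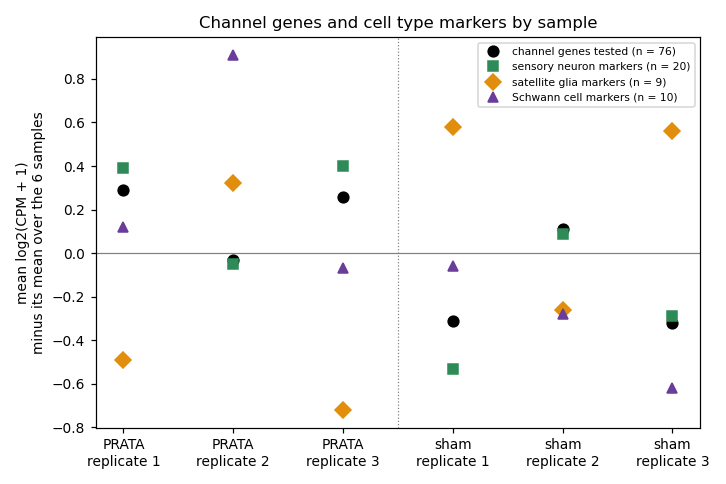
Mean log2(CPM + 1) of the 76 channel genes tested and of 3 lists of cell type markers in each of the 6 samples, minus the list's mean over the 6 samples (vertical axis). The channel genes and the neuron markers are both lowest in sham replicates 1 and 3 and highest in PRATA replicates 1 and 3, with PRATA replicate 2 and sham replicate 2 near 0.

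Voltage-gated alpha subunits, which form the pore, held 31 tested genes, of which 29 were above 0 in log2 fold change and 14 had an unadjusted p under 0.05, all higher after PRATA. Of all genes tested, 52.0% were above 0 and 8.19% were higher with such a p. The M-current is a slow potassium current that restrains repetitive firing. Kcnq3, which encodes a subunit of its channels, was low, at 7.23, 10 and 4.27 CPM after PRATA (replicates 1, 2 and 3, the order kept below) against 2.56, 4.68 and 4.06 CPM after the sham operation. PRATA replicate 3 lay within the sham range, and the log2 fold change was 0.95 (adjusted p = 0.259 in edgeR, standard error 0.40). Kcnq5, another M-channel subunit, was at 184, 131 and 203 CPM against 106, 141 and 91.7 CPM, a log2 fold change of 0.61 (adjusted p = 0.233 in edgeR, standard error 0.23) with sham replicate 2 above PRATA replicate 2.

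**Figure D3:**
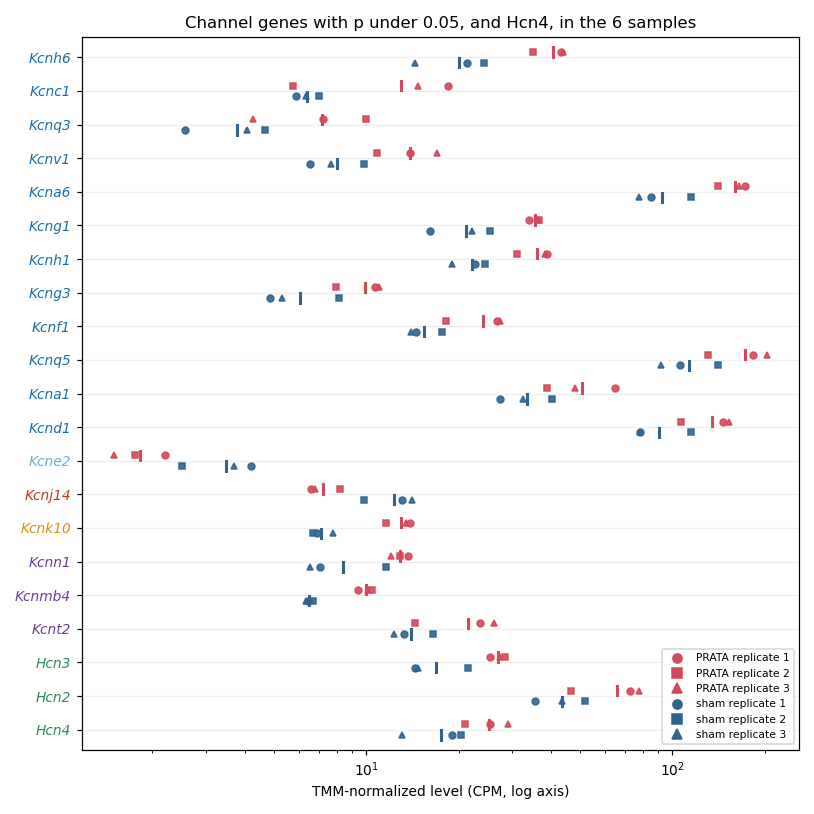
TMM-normalized level (CPM, log axis) of 20 of the 23 channel genes with an unadjusted p under 0.05, and of Hcn4, in each of the 6 samples, with a vertical bar at the mean of each group and gene names coloured by class. Kcnh6, Kcna6 and Kcnk10 show separate groups, while in Kcnq5 and Kcnd1 PRATA replicate 2 lies below sham replicate 2.

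The ether-a-go-go family includes the EAG channel Kcnh1 and the ERG channels Kcnh2, Kcnh6 and Kcnh7, whose slow gating contributes to the resting potential and to spike frequency adaptation. Kcnh6 (ENSRNOG00000008078) had the highest log2 fold change of the 76 channel genes tested. It was at 43.1, 35.0 and 43.9 CPM after PRATA and at 21.3, 24.3 and 14.4 CPM after the sham operation, means of 40.7 ± 4.94 and 20 ± 5.13 CPM (SD, n = 3). All PRATA samples lay above all sham samples, and the log2 fold change was 1.03 (adjusted p = 0.156 in edgeR, standard error 0.23). Kcnh1 was at 39.0, 31.0 and 38.3 CPM against 22.7, 24.5 and 19.1 CPM, again without overlap, with a log2 fold change of 0.71 (adjusted p = 0.168 in edgeR, standard error 0.18). The other ERG genes overlapped between the groups, with Kcnh2 at 90.9, 60.8 and 111 CPM against 53.9, 85.2 and 59.1 CPM (log2 fold change 0.41, standard error 0.27) and Kcnh7 at 32.4, 14.2 and 33.1 CPM against 19.0, 27.3 and 21.6 CPM (0.23, standard error 0.33). Of the remaining family members, Kcnh5 and Kcnh8 were tested and had log2 fold changes of 0.79 and 0.01 with overlapping groups.

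Kv1 channels sit on axons and near nodes and oppose spike initiation. Kcna6 (ENSRNOG00000052486) was at 173, 141 and 165 CPM after PRATA and at 84.8, 115 and 77.7 CPM after the sham operation. The groups did not overlap, with means of 160 ± 16.7 and 92.6 ± 19.9 CPM (SD, n = 3) and a log2 fold change of 0.79 (adjusted p = 0.166 in edgeR, standard error 0.20). Kcna1 was at 64.7, 38.9 and 47.9 CPM against 27.4, 40.3 and 32.5 CPM, a log2 fold change of 0.60 (adjusted p = 0.245 in edgeR, standard error 0.24), with PRATA replicate 2 just below sham replicate 2. Kcna2, the Kv1 gene with the most reads, was at 425, 234 and 394 CPM against 238, 305 and 224 CPM. Its groups overlapped, and the log2 fold change of 0.46 (standard error 0.27) had an unadjusted p of 0.123 in edgeR's fit. An antisense RNA of Kcna2 is known in sensory neurons, and since the strand setting of the counts is not given in the sources used here, its reads could not be told apart from those of Kcna2. Of the other Kv1 genes tested, Kcna5 had separate groups at 11.6 to 14.3 and 7.88 to 10.8 CPM (log2 fold change 0.45, unadjusted p = 0.0749, edgeR), while Kcna4, the A-type member, and Kcna3 overlapped, with log2 fold changes of 0.38 and -0.00.

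Silent subunits, which form no channel alone but alter other voltage-gated channels, had 4 genes with an unadjusted p under 0.05. All 4 were higher after PRATA, as were 8.19% of all genes tested with such a p. Kcng1 was at 33.9, 36.6 and 36.4 CPM against 16.1, 25.3 and 22.1 CPM, Kcnf1 at 26.7, 18.2 and 27.3 CPM against 14.5, 17.6 and 14 CPM, and Kcnv1 at 13.9, 10.8 and 17.0 CPM against 6.56, 9.83 and 7.65 CPM. In these 3 genes every PRATA sample exceeded every sham sample, with log2 fold changes of 0.76 (standard error 0.20), 0.65 (0.22) and 0.81 (0.26) and adjusted p of 0.168, 0.203 and 0.194 in edgeR. Kcng3 was at 10.7, 7.97 and 11 CPM against 4.84, 8.12 and 5.29 CPM, with sham replicate 2 slightly above PRATA replicate 2 (log2 fold change 0.71, standard error 0.29, adjusted p = 0.245, edgeR). Other silent subunits overlapped, with log2 fold changes of 0.65 for Kcns1, 0.35 for Kcng2, 0.30 for Kcns3 and -0.99 for Kcnv2, the last with a standard error of 1.04.

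Kv3 channels close fast and allow brief spikes, and Kv4 channels carry the A-type current that delays the next spike. Kcnc1 was at 18.5, 5.74 and 14.7 CPM after PRATA and at 5.87, 7.02 and 6.33 CPM after the sham operation. The log2 fold change, 1.01 (adjusted p = 0.244 in edgeR, standard error 0.40), rested on PRATA replicates 1 and 3, since PRATA replicate 2 was below all sham samples. Kcnc4, the A-type Kv3 gene, was at 123, 95.4 and 143 CPM against 75.1, 115 and 76.5 CPM, with a log2 fold change of 0.44 (standard error 0.23). Kcnc2 also overlapped, with a log2 fold change of 0.89 (standard error 0.41).
Among the Kv4 genes, the log2 fold change was larger for Kcnd1 than for Kcnd3. Kcnd1 was at 146, 107 and 153 CPM after PRATA and at 78.1, 115 and 78.3 CPM after the sham operation, with 0.58 as the log2 fold change (adjusted p = 0.237 in edgeR, standard error 0.23). Kcnd3 was at 187, 136 and 200 CPM against 139, 195 and 144 CPM, with a log2 fold change of 0.13 (unadjusted p = 0.558 in edgeR, standard error 0.22) that turned to -0.07 within the 4 samples that share a 7SL pattern. The difference between Kcnd1 and Kcnd3 was not tested.

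The auxiliary subunits of voltage-gated channels held 10 tested genes, 8 of them above 0 in log2 fold change, and their median of 0.30 went to -0.00379 within the 4 samples that share a 7SL pattern, to 0.02 without sham replicate 1 and to 0.52 without sham replicate 2. Kcnab2, a cytoplasmic beta subunit that helps to place Kv1 channels in the axon, was at 237, 171 and 233 CPM after PRATA and at 111, 202 and 137 CPM after the sham operation. The groups overlapped, with a log2 fold change of 0.51 (unadjusted p = 0.0808 in edgeR, standard error 0.26). Kcnab1 (log2 fold change 0.36, standard error 0.33) and Kcnab3 (0.84, standard error 0.51), the other beta subunits, overlapped too. The calcium-binding KChIP proteins, partners of Kv4 channels, had log2 fold changes of 0.21 for Kcnip2, 0.24 for Kcnip3, 0.25 for Kcnip4 and -0.15 for Kcnip1, all with overlapping groups and standard errors of 0.23 to 0.39.
Among the KCNE proteins, single-pass membrane subunits that modify several voltage-gated channels, Kcne2 (ENSRNOG00000029811) was lower after PRATA. It was at 2.19, 1.75 and 1.5 CPM against 4.21, 2.5 and 3.68 CPM, so that all PRATA samples lay below all sham samples. The log2 fold change was -0.95 (adjusted p = 0.245 in edgeR, standard error 0.38), at a total of 174 reads over the 6 samples. Kcne4 was at 3.49, 2.07 and 4.27 CPM against 3.04, 0.156 and 1.79 CPM and Kcne3 at 0.387 to 1.87 CPM in the 6 samples, both overlapping.

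Inward rectifiers were the class with the most genes below 0, 4 of the 12 tested. Kcnj14 (ENSRNOG00000021056), which encodes the strong inward rectifier Kir2.4, was lower after PRATA, at 6.58, 8.21 and 6.8 CPM against 13.1, 9.83 and 14.1 CPM. The groups did not overlap, with means of 7.20 ± 0.881 and 12.3 ± 2.23 CPM (SD, n = 3) and a log2 fold change of -0.78 (adjusted p = 0.180 in edgeR, standard error 0.24). The other strong rectifiers overlapped, with log2 fold changes of 0.49 for Kcnj12, 0.05 for Kcnj2 and -0.62 for Kcnj4. Kcnj12 was at 19.6, 14.3 and 20 CPM against 13, 17.6 and 8.03 CPM.
The GIRK genes, whose channels open when inhibitory receptors release G protein subunits, were all above 0 and none had an unadjusted p under 0.05. Kcnj3 was at 8.52, 5.74 and 6.8 CPM after PRATA and at 4.91, 5.15 and 3.78 CPM after the sham operation, with separate groups and a log2 fold change of 0.60 (adjusted p = 0.298 in edgeR, standard error 0.28). Kcnj9, Kcnj6 and Kcnj5 had log2 fold changes of 0.78, 0.39 and 0.19 and overlapped.
The pore genes of the ATP-sensitive channels, Kcnj11 and Kcnj8, overlapped with log2 fold changes of 0.45 (standard error 0.54) and 0.37 (0.75). Kcnj10, which encodes the Kir4.1 channel known from satellite glia, was at 13.7, 31.2 and 12.2 CPM against 38.9, 17.5 and 21.8 CPM (log2 fold change -0.46, standard error 0.42), and it went to 0.19 within the 4 samples that share a 7SL pattern, to -1.02 without PRATA replicate 2 (unadjusted p = 0.0288 in edgeR) and to -0.06 without sham replicate 1. Its highest PRATA sample, replicate 2, and its lowest sham sample, replicate 2, were also the highest and lowest of their groups in the satellite glia mean, at 7.39 and 6.81 log2(CPM + 1).

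Of the two-pore channels, 9 of the 10 tested were above 0 in log2 fold change, where 52.0% of all genes tested were. Only 1 was higher with an unadjusted p under 0.05, which is near the share of all genes tested, 8.19%. Kcnk10 (ENSRNOG00000003813), which encodes the stretch- and lipid-gated leak channel TREK-2, was at 13.9, 11.6 and 13.5 CPM after PRATA and at 6.91, 6.71 and 7.75 CPM after the sham operation. The spread within each group was small, with means of 13 ± 1.28 and 7.12 ± 0.549 CPM (SD, n = 3), and the log2 fold change was 0.86 (adjusted p = 0.158 in edgeR, standard error 0.21). Kcnk4, the related TRAAK channel, was at 12.7, 13.3 and 12.6 CPM against 7.12, 12.3 and 6.8 CPM. Its groups were separate by a narrow margin, with a log2 fold change of 0.57 (adjusted p = 0.312 in edgeR, standard error 0.28). Kcnk2, or TREK-1, was at 23.0, 23.4 and 23.9 CPM against 13.3, 32.2 and 20.4 CPM, so the sham samples lay on both sides of the PRATA samples. The log2 fold change of 0.10 (standard error 0.30) turned to -0.18 without sham replicate 1.
The acid-sensitive TASK channel Kcnk3 was at 11.6, 15.3 and 18.3 CPM after PRATA and at 6.91, 14.2 and 8.31 CPM after the sham operation (log2 fold change 0.64, standard error 0.32, unadjusted p = 0.0781, edgeR). Kcnk12 (log2 fold change 0.76, standard error 0.38) and Kcnk1 (0.49, standard error 0.31) overlapped as well. Kcnk18, or TRESK, a leak channel prominent in sensory ganglia, was at 8.00, 9 and 19.3 CPM against 12.0, 14.2 and 10.1 CPM, equal group means of 12.1 CPM with a log2 fold change of 0.01 (standard error 0.36).

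The calcium- and sodium-activated channels held 9 tested genes, 7 above 0 in log2 fold change and 3 with an unadjusted p under 0.05. These 3 were higher after PRATA, as were 8.19% of all genes tested with such a p. Kcnmb4 (ENSRNOG00000054458), the neuronal beta subunit of the large-conductance BK channel, was at 9.42, 10.4 and 10.1 CPM after PRATA and at 6.43, 6.71 and 6.33 CPM after the sham operation. The groups were separate, with SDs of 0.486 and 0.199 CPM (n = 3) and a log2 fold change of 0.62 (adjusted p = 0.206 in edgeR, standard error 0.21). Kcnma1, the pore of the same channel, was at 55.6, 46.8 and 73.1 CPM against 40.6, 59.3 and 34.9 CPM, with a log2 fold change of 0.38 (standard error 0.25) and overlapping groups.
Kcnn1, a small-conductance SK channel of the afterhyperpolarization, was at 13.7, 12.9 and 12.0 CPM against 7.05, 11.6 and 6.52 CPM, with separate groups and a log2 fold change of 0.63 (adjusted p = 0.266 in edgeR, standard error 0.27). The other SK genes overlapped, with log2 fold changes of 0.68 for Kcnn2 (standard error 0.44) and -0.05 for Kcnn3 (0.45), and so did Kcnn4, the intermediate-conductance channel, at -0.43 (0.46). Of the sodium-activated channels, Kcnt2 was at 23.5, 14.4 and 26.2 CPM against 13.3, 16.5 and 12.3 CPM (log2 fold change 0.61, standard error 0.26, adjusted p = 0.268, edgeR). Kcnt1 was at 49.3, 47.6 and 80.5 CPM against 40.8, 56.2 and 40.4 CPM, and overlapped (0.37, standard error 0.25).

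Among the HCN genes, Hcn2, which responds strongly to cyclic AMP and is known for its part in inflammatory pain, was at 72.9, 46.5 and 77.9 CPM after PRATA and at 35.5, 51.7 and 43.7 CPM after the sham operation. Here PRATA replicate 2 lay below sham replicate 2, and the log2 fold change was 0.59 (adjusted p = 0.251 in edgeR, standard error 0.24). Hcn3 was at 25.3, 28.4 and 27.3 CPM against 14.4, 21.5 and 14.7 CPM, and Hcn4 at 25.4, 21.0 and 29.0 CPM against 19.1, 20.4 and 13.1 CPM. Both had separate groups, with log2 fold changes of 0.68 (adjusted p = 0.181 in edgeR, standard error 0.21) and 0.52 (adjusted p = 0.273 in edgeR, standard error 0.23).

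Since the neuron markers moved in the same direction, each member was also expressed relative to them, by subtracting the sample's mean log2(CPM + 1) of the 20 neuron markers, which was 0.49 higher after PRATA. The subtraction lowers the group difference of every gene by 0.49, whether or not neurons express it. The shares over all genes on this scale are therefore set in part by that shift, and they are no test of the members. On this scale 32 of the 76 channel genes (42.1%) had a group difference above 0, where 11.9% of all genes tested but the markers did, and the median difference was -0.06, against -0.46 over those genes. The class medians were 0.12 for the HCN channels, 0.08 for the voltage-gated alpha subunits, -0.11 for the calcium- and sodium-activated channels, -0.16 for the two-pore channels, -0.25 for the voltage-gated auxiliary subunits and -0.34 for the inward rectifiers. For 6 channel genes (7.89%) the PRATA samples were all above the sham samples on this scale, where 0.577% of those genes did. Among them were Kcnh6 (difference 0.52), Kcna6 (0.31), Kcnv1 (0.23) and Kcng3 (0.15). Kcng3 overlapped in CPM and was separate only on this scale. With 3 samples against 3, any gene with separate groups gets p = 0.10 in the exact two-sided permutation test. That p therefore adds nothing to the separation by which the genes were picked. For 6 others the PRATA samples were all below the sham samples, where 25.5% of all genes tested but the markers did. These were Kcnj14 (-1.19), Kcne2 (-1.14), Kcnj4 (-0.89), Kcnd3 (-0.36), Kcnh7 (-0.35) and Kcnip2 (-0.27). Of these, Kcnj4, Kcnd3, Kcnh7 and Kcnip2 overlapped in CPM. After centring on the gene's mean, the gap in Kcna6 was narrow. Its lowest PRATA sample was at 0.05 and its highest sham sample at 0.03. The gap was also narrow in Kcnh6 (0.21 against 0.15), Kcnv1 (-0.0 against -0.06) and Kcng3 (0.05 against -0.01). Among the lower genes, the highest PRATA and lowest sham samples were close in Kcnh7 (0.07 against 0.12) and Kcnip2 (-0.05 against 0.01). Kcnd3 was at -0.20, -0.22 and -0.12 against 0.29, 0.15 and 0.10. The genes outside these 12 overlapped between the groups on this scale.

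**Figure D4:**
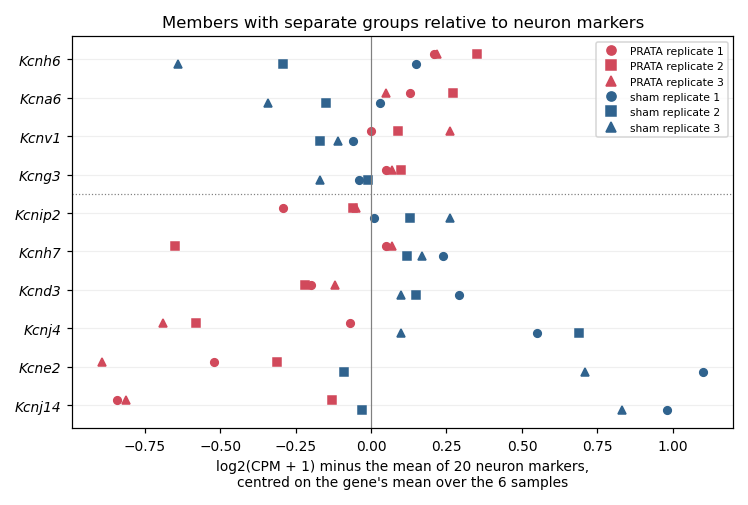
Level of 10 of the 12 channel genes whose groups do not overlap after the mean log2(CPM + 1) of 20 neuron markers is subtracted in each sample (horizontal axis, log2 units, centred on the gene's mean over the 6 samples). PRATA samples lie to the right of sham samples in the upper 4 genes and to the left in the lower 6, with the narrowest gap in Kcna6 and the widest differences in Kcnj14 and Kcne2.

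Partners that bind or place these channels were taken from a list of 25 genes, of which 23 matched the table by name and 20 were tested. Their median log2 fold change was 0.31, with 17 above 0 and 3 below, where 52.0% of all genes tested were above 0. At an unadjusted p under 0.05, 1 was higher and 1 lower, which is no more than the 8.19% and 10.1% of all genes. Cntn2, an axonal adhesion protein that clusters Kv1 channels beside the node, was at 386, 322 and 396 CPM after PRATA and at 208, 291 and 215 CPM after the sham operation, with separate groups (log2 fold change 0.63, standard error 0.21, adjusted p = 0.198, edgeR). Dlg1, a scaffold protein that binds Kv1 channels and many other membrane proteins, was at 63.8, 78.2 and 59.9 CPM against 167, 89.7 and 187 CPM, also without overlap (log2 fold change -1.14, standard error 0.28, adjusted p = 0.158, edgeR). The Kv4 partners Dpp6 and Dpp10 overlapped, with log2 fold changes of 0.30 and 0.16. Amigo1, a partner of delayed rectifier channels, was at 0.52 (standard error 0.24), Abcc8, the sulfonylurea receptor of neuronal ATP-sensitive channels, at 0.60 (0.27), and Pex5l, which controls the surface level of HCN channels, at 0.25 (0.16), all on the log2 fold change scale.

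The count of channel genes with an unadjusted p under 0.05 depended on single samples. Without sham replicate 2, 33 channel genes were higher, beside 13.4% of all genes tested (4.67% at an adjusted p under 0.05, either direction), and Kcnh6, Kcna6 and Hcn3 had adjusted p of 0.0415, 0.0349 and 0.0406 in edgeR. Without PRATA replicate 1, PRATA replicate 3 or sham replicate 3 the count was 10, and without sham replicate 1 it was 11, beside 3.47%, 5.55%, 3.76% and 6.48% of all genes in that order. Without PRATA replicate 2 it was 26, beside 7.53%. Within the 4 samples that share a 7SL pattern, 2 per group, 8 channel genes of 77 tested were higher (10.4%, beside 5.98% of all genes) and 1 was lower (beside 6.9%), and all 8 were among the 21. These 4 samples are among those that gave the 21, so the overlap is not independent support. DESeq2 gave 6 channel genes an adjusted p under 0.05, all higher after PRATA, among them Kcnh6 (0.00800), Kcna6 (0.0193), Kcnh1 (0.0451) and Kcnk10 (0.0468), beside 4.88% of all genes in either direction. Over the 17 alternatives the adjusted p of Kcnh6 ran from 0.00800 to 0.55 and that of Kcna6 from 0.0193 to 0.55. With limma voom and sample quality weights 35 channel genes were higher at an unadjusted p under 0.05, beside 15.6%, and 11 had an adjusted p under 0.05, 10 higher and Kcnj14 lower, beside 7.86% of all genes. Kcnh6, Kcna6, Kcnh1, Kcng1 and Kcnk10 had an unadjusted p under 0.05 in all 17 alternatives that were run.

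Promoter sequences from RefSeq (build GRCr8) matched 63 of the 96 channel genes by symbol, under 80%, so no share over the members was drawn. The 250 bases before the annotated start are shown for Kcnh6 and Kcna6, both higher after PRATA, and for Kcnj14, which was lower, as examples of genes whose groups were separate both in CPM and relative to the neuron markers. Capitals mark matches, on either strand, to GGGCGG (GC box, in 40.3% of the 18999 protein-coding promoters of this length), TTCAGCACC and GGACAG (the left and right parts of the RE1 element, in 0.342% and 18.5%). The same search gave no match in the 3 sequences for the TATA box TATAAA (in 12.3% of these promoters), the cyclic AMP element TGACGTCA (2.03%) and the overlapping part of it TGACG (21.1%), the AP-1 site TGANTCA (5.82%), the E-box CACGTG (6.38%) or the homeodomain core TAATTA (4.52%). RE1 is the binding element of REST, a repressor of neuronal genes in other cells.
Kcnh6, GRCr8 chr10:91449401-91449650, plus strand: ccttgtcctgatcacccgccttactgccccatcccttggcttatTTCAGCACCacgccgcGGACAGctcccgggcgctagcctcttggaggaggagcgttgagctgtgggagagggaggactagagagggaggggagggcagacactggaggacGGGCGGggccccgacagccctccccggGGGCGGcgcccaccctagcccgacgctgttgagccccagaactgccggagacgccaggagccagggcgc
Kcna6, GRCr8 chr4:161262353-161262602, minus strand: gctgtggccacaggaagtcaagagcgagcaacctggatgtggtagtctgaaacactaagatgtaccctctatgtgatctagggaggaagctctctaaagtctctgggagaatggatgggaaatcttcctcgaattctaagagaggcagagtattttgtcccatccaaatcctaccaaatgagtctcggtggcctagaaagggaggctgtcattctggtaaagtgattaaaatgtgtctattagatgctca
Kcnj14, GRCr8 chr1:105437259-105437508, minus strand: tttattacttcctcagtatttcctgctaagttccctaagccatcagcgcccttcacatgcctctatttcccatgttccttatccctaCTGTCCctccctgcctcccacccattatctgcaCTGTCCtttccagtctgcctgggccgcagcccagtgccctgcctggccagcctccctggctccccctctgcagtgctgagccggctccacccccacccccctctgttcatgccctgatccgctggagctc
Counted from the start, in Kcnh6 the left and right RE1 parts begin at -206 and -190, and GC boxes at -96 and -69. The RE1 parts were searched separately, and whether parts at this spacing make up a whole RE1 was not examined. Kcna6 holds none of the motifs, and Kcnj14 holds the right RE1 part at -163 and -130, on the opposite strand. The matches are descriptions of the letters, and binding was not measured.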

How the data were processed

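RNA of L1-L2 DRG neurons in 3 PRATA and 3 sham samples of SHRs was sequenced from stranded, ribosomal RNA-depleted libraries. The authors deposited whole-number counts of reads per gene for each sample, without normalization. The submitters' processing notes name STAR 2.7.3a, RSEM and DESeq2, whereas the paper describes HISAT2, StringTie and Cuffdiff, and which of them made these counts, the strand setting, the genome build and the annotation are not given in the sources used here. Counts of overlapping or antisense genes may therefore mix.

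The test was edgeR's (version 4.0.16, R 4.3.3; filterByExpr at 10 counts, total 15, TMM factors of 0.953 to 1.10, quasi-likelihood test without a covariate, Benjamini-Hochberg adjustment over 14919 genes). The standard error is the log2 fold change divided by the root of the test's F. DESeq2 1.42.0 and limma 3.58.1 were alternatives, and figures were drawn with matplotlib 3.10.9. The fits were tested on simulated data. Single values were compared by an exact two-sided permutation test.

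The members, lists and rules were chosen with earlier results of these data known. Genes named were, per class, the 2 of highest mean CPM, the 4 of smallest p and all with an unadjusted p under 0.05, with the HCN genes, and partners with an unadjusted p under 0.05. Members and partners named outside this rule complete a family and were chosen after their values were seen. The 7SL groups and the samples left out on the neuron marker scale were added after seeing the data. Lists of markers for sensory neurons, satellite glia, Schwann cells, fibroblasts, macrophages, endothelial and mural cells were read beside the members. Results of some channel genes are not reported here, though the counts and medians over the members include them.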

Additional observations from a re-analysis of the deposited data

How the results depend on the processing

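Over 17 alternatives, the log2 fold changes of the 41 genes chosen by the rule lost an unadjusted p under 0.05 in 98 values, gained it in 24 and changed direction in 4. Within the 4 samples that share a 7SL pattern, the log2 fold change of Kcnd3 was -0.07, that of Kcnk2 -0.18 and that of Kcnj10 0.19, and that of Kcnk2 ran from -0.18 (without sham replicate 1) to 0.48 with each sample left out. With the 7SL group as covariate, Kcnd3 was at 0.13 and Kcnj10 at -0.42. The cause of these reversals was not tested. Sham replicate 2, the shallowest library, limits genes of low level most.

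The number of channel genes higher at an unadjusted p under 0.05, 21 in the edgeR fit, was 12 with library size alone (beside 5.6% of all genes), 35 with limma voom and sample quality weights (15.6%), 8 within the 4 samples that share a 7SL pattern (5.98%), and 10 to 33 (the highest without sham replicate 2) with each sample left out in turn. With the 7SL group as covariate it was 20 (beside 7.4%). The number lower, 2, was 1 within those 4 samples (beside 6.9% of all genes) and 1 with the 7SL group as covariate (9.56%), and 1 to 3 with each sample left out (5.44% to 14.1%). The sample titles number the replicates and name no pairing. Samples that share a number did not deviate together from their groups (r across genes, -0.39, -0.10 and -0.36). With 3 samples per group this does not settle whether the numbers pair the samples. A replicate block gave 9 higher (beside 4.16% of all genes) and 1 lower (6.08%).

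The median log2 fold change of the channel genes tested was 0.66 with voom weights and lay between 0.37 and 0.71 (without sham replicate 2) with each sample left out. For the inward rectifiers it was 0.53 with voom weights, 0.07 without a filter on low counts and between -0.00308 (without sham replicate 3) and 0.64 with each sample left out, and for the two-pore channels 0.71 with voom weights, 0.52 with at least 10 counts in every sample and between 0.25 and 0.82 (without sham replicate 2) with each sample left out. For the voltage-gated auxiliary subunits it was -0.00379 within the 4 samples that share a 7SL pattern, 0.33 with the 7SL group as covariate and between 0.02 (without sham replicate 1) and 0.52 (without sham replicate 2) with each sample left out. The causes were not tested. With each sample left out, the median lay between 0.42 and 0.76 for the voltage-gated alpha subunits. It lay between 0.30 and 0.63 for the calcium- and sodium-activated channels and between 0.57 and 0.79 for the HCN channels. Relative to the neuron markers the members' median stayed between -0.12 and -0.01 with each sample left out.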
